A study of Mus musculus with 6 samples.

Results

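Neuropeptides are short signalling peptides that neurons cut out of larger precursor proteins, pack into dense-core vesicles and release to act on G protein-coupled receptors. In the cortex most of them mark classes of GABAergic interneurons, while cholecystokinin is also made by pyramidal cells and opioid and tachykinin precursors are abundant in the neighbouring striatum. The 10 genes described here are Sst, Cort, Npy, Vip, Cck, Crh, Adcyap1, Penk, Pdyn and Tac1, which each encode 1 such precursor. They were taken by symbol from a named list, each matched 1 gene among the 49315 in the files, and all 10 were among the 17185 genes with enough reads to test.

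Cerebral cortex RNA of wild type mice was sequenced in 6 libraries. The 3 shFabp7 libraries came from mice given AAV-PHP.eB-Gfap-GFP-shFABP7, a vector whose Gfap promoter directs a hairpin RNA against Fabp7 to astrocytes. The 3 shScr libraries came from mice given AAV-PHP.eB-Gfap-GFP-shScr, the same vector with a scrambled hairpin. All mice received the vector behind the eye at 21 days of age and LPS, a bacterial cell wall component that causes inflammation, at 1 mg/kg weekly for 3 weeks from 4 months of age, and tissue was collected 24 h after the last dose. Both groups therefore carried virus, GFP and LPS, and the effect of LPS itself cannot be read from them. Whether each library is 1 animal is not stated in the labels. A p-value here weighs the difference between the groups against the spread between these libraries, and that spread may be technical. The question was which peptide precursor transcripts of neurons differed when the astrocyte gene Fabp7 was silenced under endotoxemia.

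Total counts lay between 16914012 and 18991235 per library. Fabp7 had 93, 41 and 66 reads in shFabp7 libraries 1 to 3, against 484, 285 and 290 reads in shScr libraries 1 to 3, with a log2 fold change of -2.31 (SE 0.35). Its adjusted p was 0.0704 by edgeR's quasi-likelihood test and 0.000287 with the replicate number as a block. Excitatory neuron markers had summed levels of 7867, 8691 and 7574 CPM (a gene's reads scaled to a common library size, by TMM) in shFabp7 libraries, against 4953, 6802 and 6567 CPM in shScr libraries, so the labelled tissue was borne out by its markers in all 6. shScr library 1 stood apart. It held 715 reads of Avp, 246 of Oxt and 244 of Pmch, hormone precursors of the hypothalamus, where the other 5 libraries had at most 92, 38 and 24. It also had 1910 CPM of summed striatal markers, as did shFabp7 library 3 with 2384 CPM, where the other 4 libraries had 888 to 1252 CPM. shScr library 3 was highest for summed hippocampal and dentate markers, with 709.6 CPM, where the other 5 libraries had 378 to 488.7 CPM. That library held 157 reads of Dsp and 907 of Fibcd1, where the other 5 had at most 17 and 247. Log2 fold changes of single genes that shScr library 1 moved by more than 1.5 times are also given without it. In whole tissue, fewer cells of a type and less RNA per cell cannot be told apart.

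The promoters of 4 members are shown because the cAMP response element (CRE), the site bound by the activity-dependent factor CREB, is a known element of several neuropeptide genes. The sequences are the 130 bases before the transcription start, from RefSeq on GRCm38.p6, with CRE letters in capitals. TGACGTCA, the full CRE, was first defined in the rat Sst gene. CGTCA and its reverse complement TGACG are the short form, which is also part of the full one.
Sst, chr16:23890845-23890974, minus strand: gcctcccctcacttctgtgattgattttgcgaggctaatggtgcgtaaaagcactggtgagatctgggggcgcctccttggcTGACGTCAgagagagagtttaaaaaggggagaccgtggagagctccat
Vip, chr10:5639088-5639217, plus strand: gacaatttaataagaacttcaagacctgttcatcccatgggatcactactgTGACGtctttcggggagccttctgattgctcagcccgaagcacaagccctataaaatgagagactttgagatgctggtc
Cck, chr9:121495695-121495824, minus strand: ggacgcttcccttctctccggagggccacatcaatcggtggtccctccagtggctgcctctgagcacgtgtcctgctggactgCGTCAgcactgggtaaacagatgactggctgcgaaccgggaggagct
Npy, chr6:49822580-49822709, plus strand: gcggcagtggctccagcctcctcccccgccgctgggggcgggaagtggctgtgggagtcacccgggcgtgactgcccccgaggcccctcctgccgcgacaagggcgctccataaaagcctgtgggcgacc

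A promoter was found for 8 of the 10 members, and both strands of the 250 bases before each start were searched. The full CRE was present in 1 of the 8, Sst, where it lies 48 to 41 bases before the start, and in 1.77% of the 27025 genes with a promoter in the table. The short form was present in 6 of the 8 (Sst, Vip, Cck, Tac1, Cort and Adcyap1) and in 19.8% of all genes. No match of either form was found in the windows of Npy and Pdyn. A match is a description of the letters and not of binding.

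Per kilobase of exon, Sst was the most abundant of the members, with a mean of 169 RPKM over the 6 libraries (CPM divided by exon length in kilobases) and a range of 152 to 186 RPKM. Cck followed with a mean of 119.5 RPKM (range 54.8 to 161), Penk with 83.5 RPKM (33.6 to 160.4) and Npy with 76.6 RPKM (45.7 to 96.9). The ranges of these last 3 overlapped, so their order was not separated by the spread between libraries, and only 1 Cck library and 1 Penk library exceeded the lowest Sst value. The other 6 were lower, with means from 3.13 RPKM for Crh to 11.6 RPKM for Pdyn. None of them exceeded 21.8 RPKM in any library, so a gap with no overlap separated the 4 abundant precursors from the rest. Among the 6, Pdyn, Tac1, Vip and Adcyap1 had overlapping ranges, as did Cort (2.56 to 5.64 RPKM) and Crh (2.30 to 3.62 RPKM). The range of Cort also overlapped those of Tac1 (2.81 to 21.8 RPKM), Vip and Adcyap1, and that of Crh overlapped Tac1. Without length scaling, Cck had the highest level, followed by Penk and Sst, and Crh lay above Cort.

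Of the 10 members, 3 had a positive and 7 a negative log2 fold change, with a median of -0.23, where all genes tested had a median of -0.0065. By edgeR's quasi-likelihood test, 0 members passed an adjusted p of 0.05, against 0.116% of all genes tested. At an unadjusted p under 0.05 there was 1 member, Npy, against 16.8% of all genes. Npy was also the 1 member that passed in DESeq2, against 4.25% of all genes, and with the replicate number as a block, against 3.66%. In limma-voom with quality weights 0 members passed, against 109 of the 17185 genes tested. Npy passed as well with no filter on low counts, against 5.23% of all genes, and without shScr library 2, against 5.14%. The groups did not overlap for 2 members, Npy and Cck, both higher in shFabp7. That is 20.0% of the members, against 22.9% of all genes tested in either direction and 11.4% in that direction, and the difference between these shares was not tested.

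**Figure D1:**
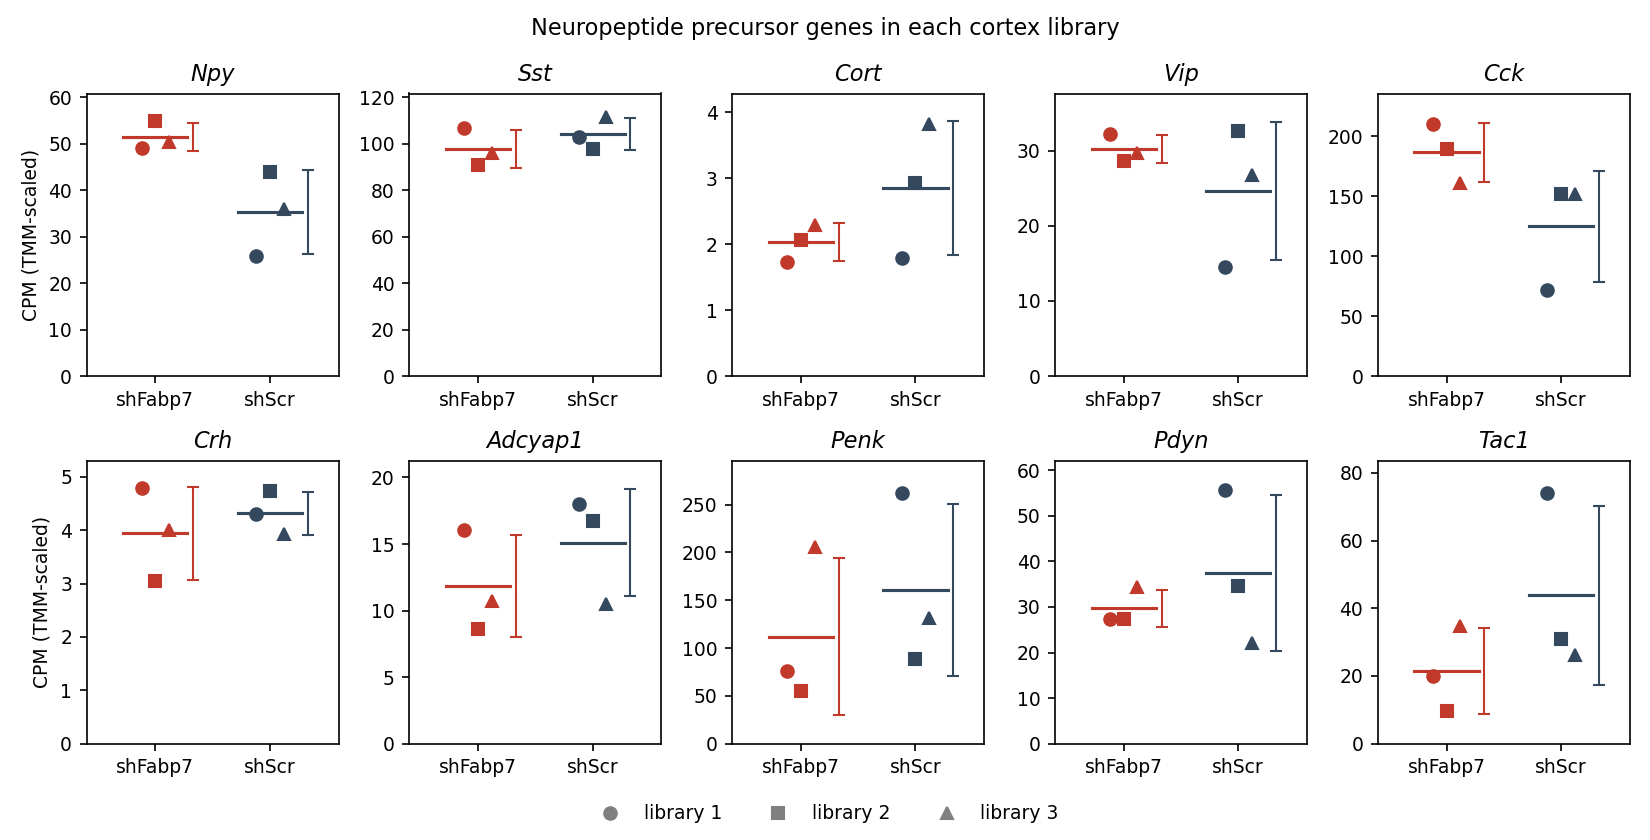
Level of each neuropeptide precursor gene (TMM-scaled CPM, linear axis from 0) in shFabp7 (red) and shScr (dark blue) cortex libraries. Symbols mark library numbers 1 to 3, horizontal lines the mean and error bars the SD (n = 3 each). The groups are separate for Npy and Cck, and shScr library 1 is the lowest for Npy, Vip and Cck and the highest for Penk, Pdyn, Tac1 and Adcyap1.

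Npy encodes neuropeptide Y, an inhibitory peptide of neurogliaform and of many Sst interneurons (chromosome 6 from 49822710 to 49829507, plus strand, ENSMUSG00000029819). It had 49.2, 54.9 and 50.4 CPM in shFabp7 libraries 1 to 3, against 25.85, 44.0 and 36.0 CPM in shScr libraries 1 to 3. All 3 shFabp7 libraries lay above every shScr library, and the shFabp7 libraries lay closer together (CV 5.80%, against 25.8% in shScr). The log2 fold change was 0.55 (SE 0.18, 95% interval 0.11 to 0.98), a fold of 1.46. In edgeR's quasi-likelihood test the adjusted p was 0.217. An exact permutation test (both sides) gave 0.1, the smallest p that 3 libraries against 3 allow.

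The Npy call depended on the model. With the replicate number as a block the log2 fold change was 0.57 and the edgeR adjusted p 0.0424. Same-numbered libraries differed by 0.93, 0.32 and 0.49 (log2). Each pair had shFabp7 higher, which any pairing would give because the groups did not overlap. DESeq2 gave an adjusted p of 0.0328. Over 17 alternatives the log2 fold change stayed between 0.36 and 0.74 and the adjusted p ran from 8.47e-06, without a filter on low counts, to 0.521. The lowest value was that without shScr library 1, where the adjusted p was 0.1001. Sex is not in the labels, but Xist and Y-linked reads split the libraries. Among those read as male, Npy had 49.2 CPM in shFabp7 library 1, against 25.85 and 44.0 CPM in shScr libraries 1 and 2. Among those read as female it had 54.9 and 50.4 CPM in shFabp7 libraries 2 and 3, against 36.0 CPM in shScr library 3. As the groups did not overlap, any split of the libraries gives this direction. With sex as a covariate the log2 fold change of Npy was 0.52 (SE 0.21; edgeR adjusted p = 0.402).

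Cck, the cholecystokinin gene of pyramidal cells and of CCK basket cells (chromosome 9 from 121489824 to 121495694, minus strand, ENSMUSG00000032532), had 210.1, 189 and 161 CPM in shFabp7 libraries 1 to 3, against 71.6, 152 and 152 CPM in shScr libraries 1 to 3. The groups did not overlap, but shScr libraries 2 and 3 came close to shFabp7 library 3, and shScr library 1 had less than the rest by a wide margin. Its log2 fold change was 0.58 (SE 0.33, 95% interval -0.30 to 1.45), with an edgeR quasi-likelihood adjusted p of 0.457 and an exact permutation p of 0.1. Without shScr library 1 it was 0.30. Excitatory neuron markers moved with it: 12 of 16 were above 0, with a median of 0.31. Their part in the Cck value was not tested.

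Vip encodes vasoactive intestinal peptide, made by interneurons that inhibit other interneurons. It had 32.3, 28.6 and 29.7 CPM in shFabp7 libraries 1 to 3, against 14.5, 32.6 and 26.7 CPM in shScr libraries 1 to 3. shScr library 2 was the highest of all and shScr library 1 the lowest, so the groups overlapped. Its log2 fold change was 0.29 (SE 0.29; edgeR adjusted p = 0.664). Leaving out shScr library 1 gave 0.026, and leaving out shScr library 2 gave 0.55.

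Sst encodes somatostatin, an inhibitory peptide of dendrite-targeting interneurons (chromosome 16 from 23889581 to 23890844, minus strand, ENSMUSG00000004366). It had 107, 91.0 and 95.9 CPM in shFabp7 libraries 1 to 3, against 103, 97.9 and 112 CPM in shScr libraries 1 to 3. The groups overlapped and no library stood apart: the highest of the 6 was 1.23 times the lowest, the narrowest spread of the 10 members. On the log2 scale the difference was -0.090 (SE 0.077), with a 95% interval of -0.26 to 0.081, or 0.835 to 1.06 as a fold (edgeR adjusted p = 0.587). Over the 17 alternatives the value stayed between -0.16 and -0.038. Its SE was the smallest of the 10.

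Cort encodes cortistatin, a somatostatin-related peptide that acts on somatostatin receptors and is made by a subset of cortical interneurons. It was the rarest member by counts, with 29, 34 and 43 reads in shFabp7 libraries 1 to 3, against 33, 55 and 70 reads in shScr libraries 1 to 3. These gave 1.73, 2.07 and 2.295 CPM in shFabp7 libraries and 1.80, 2.93 and 3.82 CPM in shScr libraries, with shScr library 1 inside the shFabp7 range. At 29 reads the counting error alone was 18.6% (SD). Its log2 fold change was -0.48 (SE 0.29; edgeR adjusted p = 0.439). Leaving out shScr library 1 gave -0.72, and leaving out shScr library 3 gave -0.21. All 3 shFabp7 libraries were below their same-numbered shScr libraries, the first by a log2 difference of -0.051. The ratio of Cort to Sst was 0.0210 ± 0.00414 in shFabp7 and 0.0272 ± 0.00874 in shScr (SD, n = 3 each; exact permutation p = 0.3).

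Crh, the corticotropin-releasing hormone gene that starts the stress axis in the hypothalamus and is expressed by some cortical interneurons, had 80, 50 and 75 reads in shFabp7 libraries 1 to 3, against 79, 89 and 72 reads in shScr libraries 1 to 3. The groups overlapped, with shFabp7 library 2 the lowest. Crh had a log2 fold change of -0.13 (SE 0.21), with a 95% interval of -0.59 to 0.33, and its sign turned without shFabp7 library 2, where it was 0.023. Adcyap1, which encodes PACAP, a peptide related to Vip that raises cAMP, had 16.1, 8.64 and 10.7 CPM in shFabp7 libraries 1 to 3, against 18.01, 16.8 and 10.5 CPM in shScr libraries 1 to 3. The groups overlapped through shScr library 3, which lay below shFabp7 libraries 1 and 3. Adcyap1 had a log2 fold change of -0.35 (SE 0.29; edgeR adjusted p = 0.581), and -0.12 with sex as a covariate. Over the libraries left out it ranged from -0.64, without shFabp7 library 1, to -0.17, without shFabp7 library 2, and it was -0.56 without shScr library 3 and -0.21 with shScr library 1 left out.

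Of the 10 members, Tac1 and Penk varied the most across the libraries, by 7.76-fold and 4.78-fold. Pdyn varied 2.53-fold, less than Cck with 2.94-fold. Penk encodes proenkephalin, which is abundant in striatal neurons that carry D2 dopamine receptors (chromosome 4 from 4133531 to 4138819, minus strand, ENSMUSG00000045573). It had 75.6, 54.9 and 205.6 CPM in shFabp7 libraries 1 to 3, against 262, 88.7 and 131.5 CPM in shScr libraries 1 to 3. shScr library 1 and shFabp7 library 3 were the highest 2, so the groups overlapped over most of their range. For Penk the difference was -0.52 on the log2 scale (SE 0.72, 95% interval -2.47 to 1.43; edgeR adjusted p = 0.775). It was 0.031 without shScr library 1, -1.30 without shFabp7 library 3 and -0.75 without both. Of the Penk exons, 14.3% (233 bases) overlap the gene A830012C17Rik on the opposite strand. That gene had 1 to 24 reads per library, where Penk had 902 or more.

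Tac1 encodes the precursor of substance P and neurokinin A, peptides of striatal neurons that carry D1 dopamine receptors. It had 20.0, 9.55 and 34.9 CPM in shFabp7 libraries 1 to 3, against 74.1, 31.1 and 26.25 CPM in shScr libraries 1 to 3. shScr library 1 was the highest and shFabp7 library 2 the lowest, a 7.76-fold range that was the widest of the 10 members. The log2 fold change of -1.02 (SE 0.68) was the most negative of the members, but its 95% interval ran from -2.84 to 0.79 and its edgeR adjusted p was 0.518. It was -0.41 without shScr library 1, -1.56 without shFabp7 library 3 and -0.95 without both. Pdyn encodes prodynorphin, the source of kappa opioid peptides. It had 27.3, 27.4 and 34.3 CPM in shFabp7 libraries 1 to 3, against 55.7, 34.7 and 21.99 CPM in shScr libraries 1 to 3. shScr libraries 1 and 3 were the highest and the lowest of all 6. Pdyn had a log2 fold change of -0.33 (SE 0.36; edgeR adjusted p = 0.699). With shScr library 1 left out it was 0.068, and with shScr library 3 left out -0.60.

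**Figure D2:**
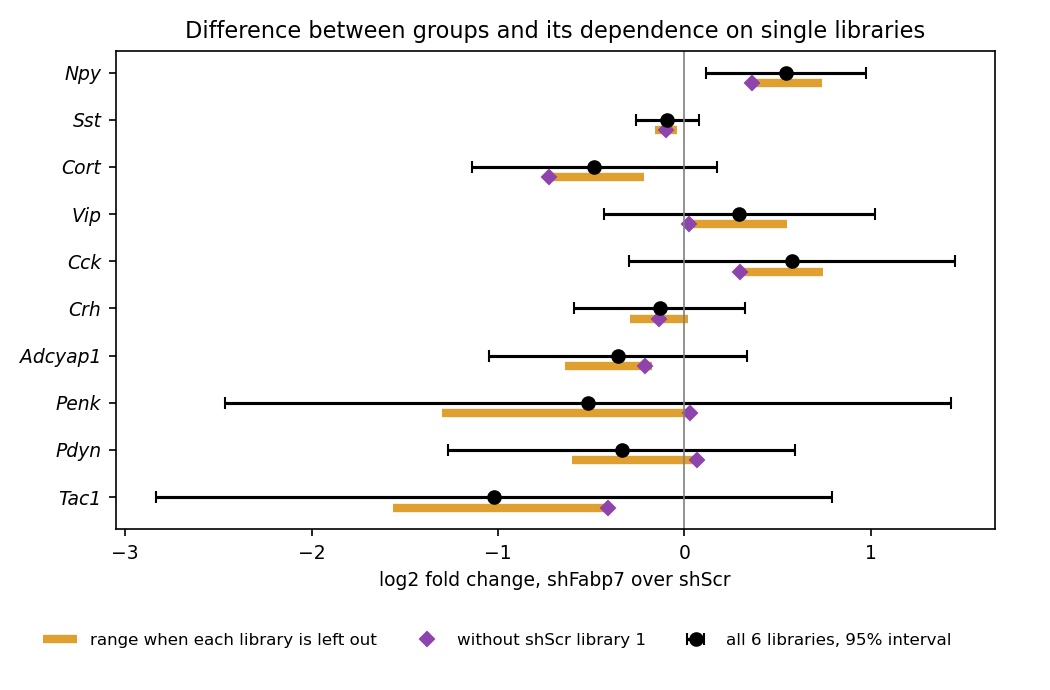
Log2 fold change of each member, shFabp7 over shScr, from edgeR's quasi-likelihood fit of all 6 libraries (black, with 95% intervals), its range when each library was left out in turn (orange) and its value without shScr library 1 (purple). The interval excludes 0 for Npy alone, before adjustment over all genes tested. Without shScr library 1, Npy had 0.36 and Penk and Pdyn had 0.031 and 0.068.

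Penk and the striatal markers had similar orders over the libraries. None of the 13 listed passed the test between groups, and by summed CPM they ran in the order shFabp7 3, shScr 1, shScr 3, shFabp7 1, shScr 2 and shFabp7 2. Penk had the same libraries in its first 3 places, with shScr 1 ahead of shFabp7 3, and the lowest in the same library. Tac1 had the same 2 libraries highest and the same library lowest, but shScr 2 came in the third place, where it was in the fifth place for the striatal markers. Over the 6 libraries, the 2 genes with the profile nearest to Penk by the root-mean-square distance of centred log2(CPM + 1) were Drd1 (0.148) and Gpr6 (0.158), a dopamine receptor and an orphan receptor of striatal projection neurons. Those nearest to Tac1, Ccdc187 (0.184) and Kcna5 (0.2005), are not on the striatal list. The root-mean-square deviation from the own mean was 0.788 for Penk and 0.851 for Tac1. With the striatal marker mean as a covariate, the log2 fold changes of Penk, Tac1 and Pdyn were -0.36, -0.86 and -0.23, and 0 of the 3 passed. The SE of Penk was then 0.073, against 0.72 without the covariate, and its edgeR adjusted p was 0.069 (unadjusted 0.000664). For Tac1 the SE was 0.32 and the edgeR unadjusted p 0.0512. The hypothalamic and thalamic markers were highest in shScr library 1, with 259 CPM in sum, where the other 5 libraries had 111 to 147 CPM. Their part in the level of Penk, Tac1 and Pdyn in that library was not tested.

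**Figure D3:**
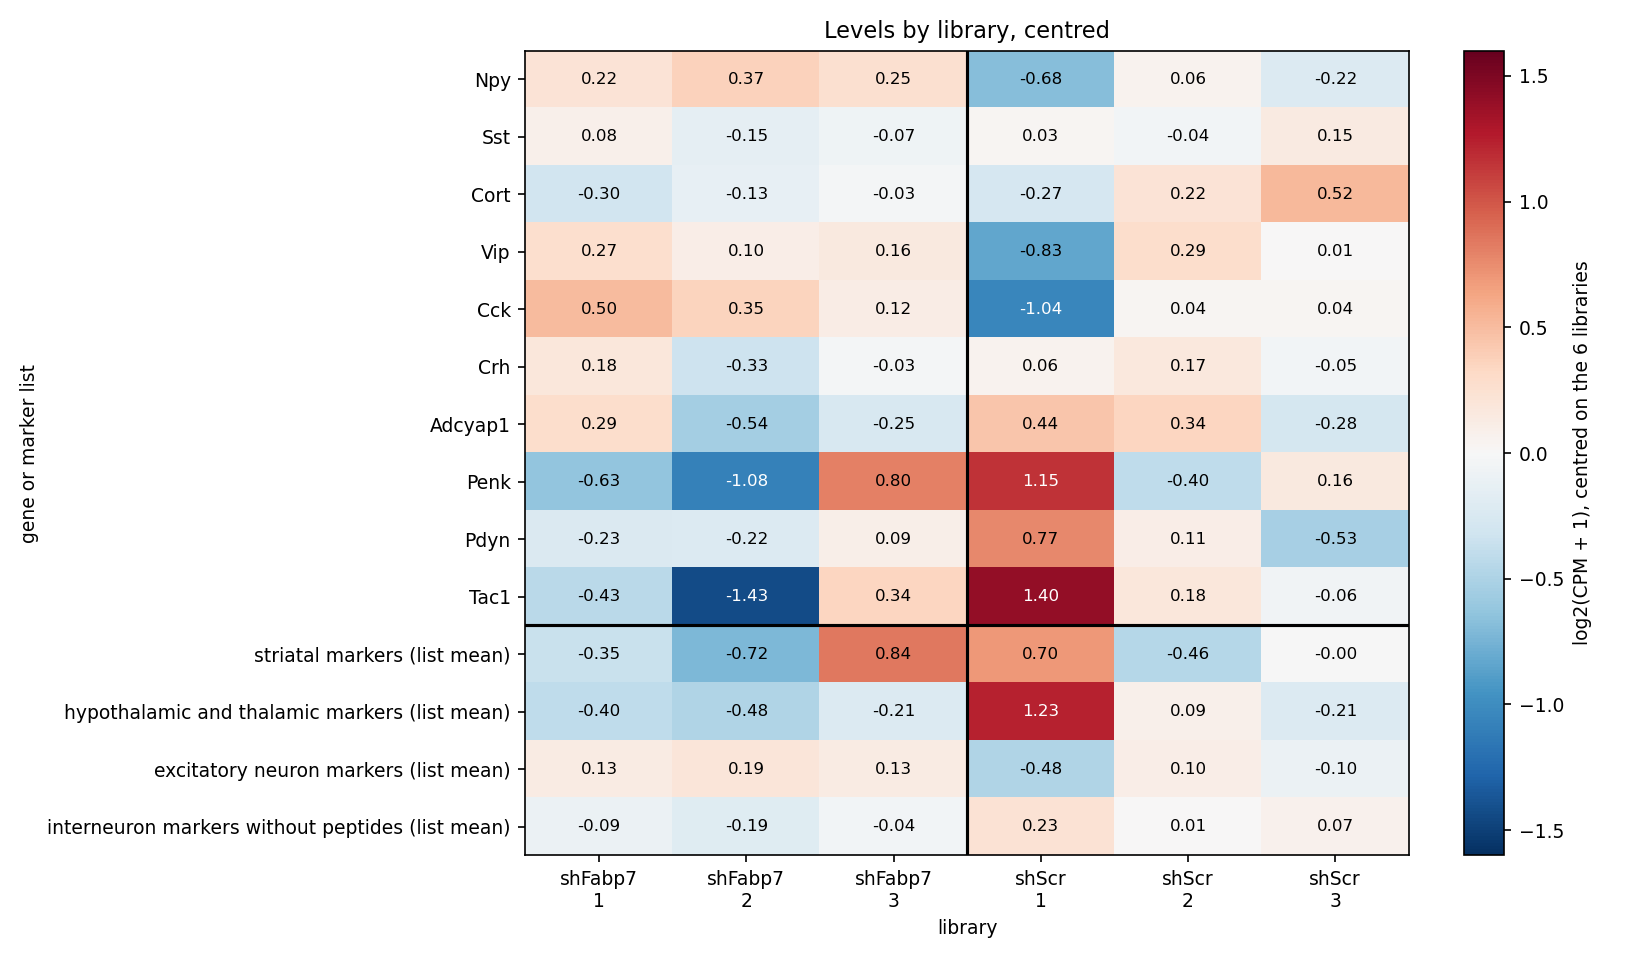
Centred log2(CPM + 1) of each member, and of the mean of 4 marker lists, in shFabp7 libraries 1 to 3 and shScr libraries 1 to 3 (columns). Each cell gives the difference from the mean of the 6 libraries. In shScr library 1, Npy, Vip and Cck were at -0.68, -0.83 and -1.04 and the excitatory markers at -0.48, while Penk, Tac1 and the hypothalamic and thalamic markers were at 1.15, 1.40 and 1.23.

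Distances were also taken between members. Npy, Vip and Cck were close, with distances of 0.187 (Npy and Vip), 0.193 (Vip and Cck) and 0.221 (Npy and Cck), all 3 being lowest in shScr library 1. Their deviations from their own means were 0.359 (Npy), 0.382 (Vip) and 0.495 (Cck). Sst and Crh were 0.147 apart, but they deviated from their own means by 0.0975 and 0.173, so that distance shows little more than that both varied little. Tac1 and Penk were 0.369 apart, less than either deviated from its own mean. Outside the members, the genes nearest to Npy were Inka2 (0.0454) and Eya4 (0.0467), those nearest to Cck were Vxn (0.0841) and Tmem178 (0.0976), and those nearest to Vip were Nfix (0.0889) and Kcns3 (0.0942). Dhx35 (0.0171) and Ap2a2 (0.0194) were nearest to Sst, and Tac2, another tachykinin precursor, was 1 of the 2 nearest to Adcyap1 (0.165). With 6 libraries and 11650 candidate genes, small distances are found for most genes. By the SD of log2(CPM + 1) within groups, Penk and Tac1 exceeded 99.7% of all genes tested and Sst exceeded 37.8%.

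Within a library, ratios between members remove the scaling factor. Npy over Sst was 0.461, 0.603 and 0.525 in shFabp7 libraries 1 to 3, against 0.251, 0.4495 and 0.322 in shScr libraries 1 to 3. The groups did not overlap, with an exact permutation p of 0.1 (both sides), the smallest possible. Tac1 over Penk was 0.203 ± 0.0537 in shFabp7 and 0.2775 ± 0.0755 in shScr (SD, n = 3 each; exact permutation p = 0.2). That ratio varied 2.07-fold across libraries, where Tac1 alone varied 7.76-fold. Pdyn over Penk varied 2.999-fold, where Pdyn alone varied 2.53-fold, and Npy over Sst varied 2.405-fold, where Npy alone varied 2.12-fold.

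Among 25 other neuropeptide precursors 14 were testable, with 0 past the threshold in edgeR, 3 at an unadjusted p under 0.05 and a median log2 fold change of -0.67. Of all genes tested, 16.8% had an unadjusted p under 0.05, 4.25% passed in DESeq2 and 3.66% with the block, in either direction. In DESeq2 2 were lower (Nts and Avp), with the replicate block 1 was lower (Avp) and in limma-voom 0 passed. Avp, the vasopressin precursor, had 14, 5 and 4 reads in shFabp7 libraries 1 to 3, against 715, 92 and 9 reads in shScr libraries 1 to 3, and Oxt, the oxytocin precursor, had 11, 5 and 3 reads, against 246, 38 and 0. shScr library 1 held most of these reads, and shScr library 3 lay within the shFabp7 range for Avp and below it for Oxt. Cartpt, the CART peptide precursor, had 4.36 ± 0.723 CPM in shFabp7 and 8.71 ± 6.83 CPM in shScr (SD, n = 3 each). shScr library 1 alone had 16.6 CPM, and the log2 fold change of -0.995 was -0.13 without it. Nts, the neurotensin precursor, had 14, 9 and 31 reads in shFabp7 libraries 1 to 3, against 368, 54 and 78 reads in shScr libraries 1 to 3, with a log2 fold change of -3.13, and -1.78 without shScr library 1. Pnoc, which encodes the precursor of nociceptin, had 56, 45 and 64 reads, against 106, 94 and 95, with no overlap and an adjusted p of 0.104. Nts and Pnoc were chosen after their values were seen.

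Of 24 testable genes of peptide processing and dense-core vesicles, 0 passed in edgeR or limma-voom. An unadjusted p under 0.05 was found for 7, against 16.8% of all genes tested. The median of the 24 was -0.063. Of all genes tested, 3.66% passed with the replicate block and 4.25% in DESeq2, in either direction. Cpe, the carboxypeptidase that trims cleaved peptides, had 2264 CPM in shFabp7 and 2363 CPM in shScr, a log2 fold change of -0.062 (-0.11 without shScr library 1), and Ptprn, a membrane protein of dense-core vesicles, had 0.053. Scg2, which encodes secretogranin II, had -0.62 (SE 0.33), and -0.25 without shScr library 1, which had 372 CPM where shScr libraries 2 and 3 had 226.6 and 169.9 CPM. Pcsk2, the prohormone convertase that cuts many of these precursors, had a log2 fold change of 0.46 with no overlap of the groups. Its adjusted p was 0.0957 in edgeR, 0.0153 with the replicate block and 0.00339 in DESeq2. Cadps2, a priming factor of dense-core vesicles, was also higher with the block (adjusted p of 0.0430). Ece2, a peptide-degrading endopeptidase, had -0.98 and was lower in DESeq2 (adjusted p of 0.000584) but not with the block (0.203). Without shScr library 1 it had -0.63 and was lower in edgeR (adjusted p of 0.0119), the 1 gene of its list to pass there. In that fit 182 of the 17521 genes tested passed. Pcsk2 and Cadps2 were chosen after their values were seen.

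Of 20 testable receptors and binding proteins of the members, 0 passed in edgeR or limma-voom, with a median of -0.15. An unadjusted p under 0.05 was found for 7, against 16.8% of all genes tested. With the replicate block 2 were lower, Npy2r and Adcyap1r1, and in DESeq2 Adcyap1r1 was lower and Oprd1 higher. Of all genes tested, 3.66% passed with the block and 4.25% in DESeq2, in either direction. Adcyap1r1, the PACAP receptor, had 200.5 ± 10.5 CPM in shFabp7 and 255 ± 31.15 CPM in shScr (SD, n = 3 each). Its log2 fold change was -0.35, and its adjusted p was 0.0344 with the block. Npy2r, a presynaptic receptor of neuropeptide Y, had 74, 33 and 89 reads in shFabp7 libraries 1 to 3, against 313, 84 and 330 reads in shScr libraries 1 to 3, and shScr library 2 overlapped the shFabp7 libraries. Cckbr, the main brain receptor of cholecystokinin, had 0.20, and 0.011 without shScr library 1. Tacr3, a tachykinin receptor, had -1.49, and -0.57 without that library. Neither was past the threshold in edgeR, DESeq2, limma-voom or with the block. Oprd1 was chosen after its values were seen.

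**Figure D4:**
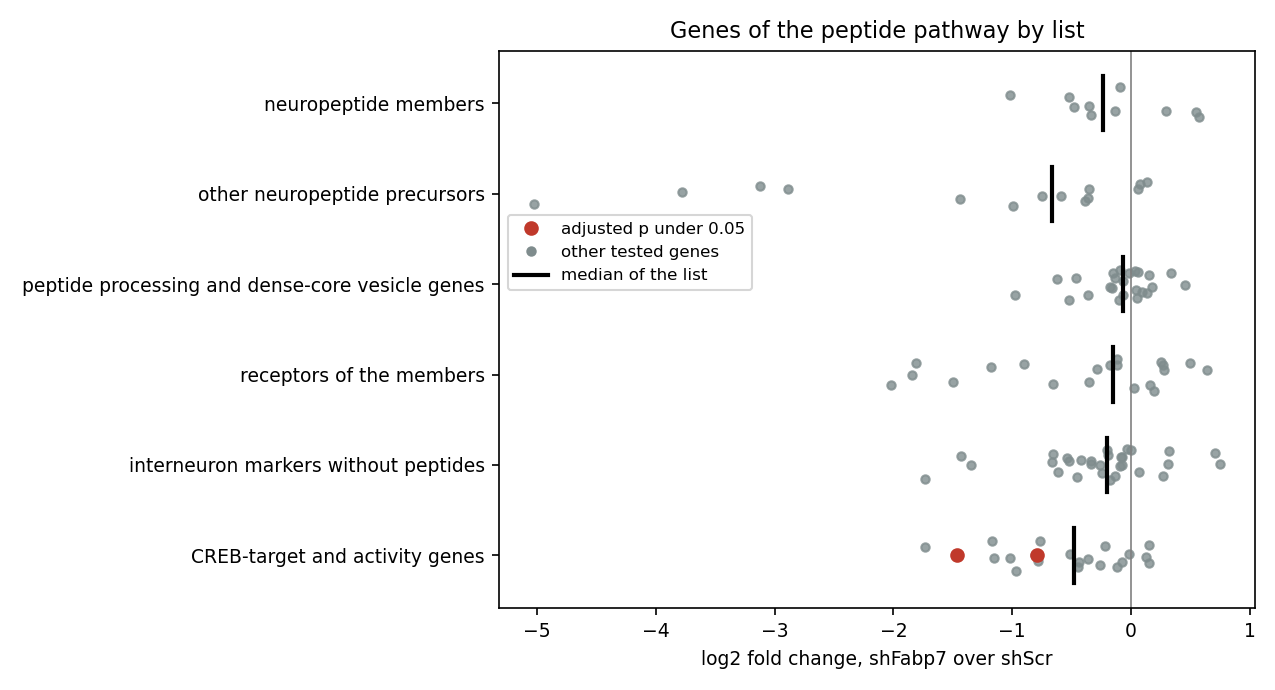
Log2 fold change, shFabp7 over shScr, of every testable gene in 6 lists (points) with the median of each list (black bar). Red points passed an adjusted p of 0.05 in edgeR, which was the case for Fos and Sik1 alone. The neuropeptide members had a median of -0.23 and the other precursors of -0.67.

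Interneuron markers other than peptides were compared because most members are made by these cells. Of 30 tested, 0 passed in edgeR or limma-voom, with a median of -0.20. An unadjusted p under 0.05 was found for 9, against 16.8% of all genes tested. The share of all genes that passed was 3.66% with the replicate block and 4.25% in DESeq2, in either direction. Gad1, a GABA-synthesising enzyme, had 332 ± 23.1 CPM in shFabp7 and 352 ± 43.6 CPM in shScr (SD, n = 3 each), with a log2 difference of -0.085, which was 0.011 without shScr library 1. Calb2, a calcium-binding protein of many Vip cells that is also expressed outside the cortex, had -1.74, and was lower with the replicate block (adjusted p of 0.00868) and in DESeq2. Without shScr library 1 it had -1.125 and was lower in edgeR (adjusted p of 0.0246), in a fit where 182 of 17521 genes passed. Nr2f2, a transcription factor of caudally derived interneurons that is also on the amygdala and piriform list, had -1.43 (edgeR adjusted p = 0.291). It had 12.3, 14.2 and 14.6 CPM in shFabp7 libraries 1 to 3, against 54.2, 14.5 and 42.3 CPM in shScr libraries 1 to 3. The groups overlapped through shScr library 2. Pvalb, the marker of fast-spiking interneurons, had 0.75 and was higher with the block (adjusted p of 0.00711) and in DESeq2. Reln and Ndnf, genes of layer 1 and neurogliaform cells, were lower with the block, though the groups overlapped for both. Lamp5, on the same list, went the other way, with 0.71, and 0.45 without shScr library 1. Its groups did not overlap, and its adjusted p was 0.411 in edgeR and 0.211 with the block. Npy, the neurogliaform peptide described above, also had a positive value. Pvalb, Reln, Ndnf and Lamp5 were chosen after their values were seen. The summed level of the 30 was 2252, 2311 and 2347 CPM in shFabp7 libraries 1 to 3, against 2687, 2332 and 2330 CPM in shScr libraries 1 to 3, so shScr library 1 was the highest.

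Of 22 CREB-target and activity genes, 2 were lower in edgeR, Fos and Sik1, 8 were lower in DESeq2, 4 in limma-voom and 3 with the block, and the median was -0.48. Of all genes tested, 0.116% passed in edgeR, 4.25% in DESeq2 and 3.66% with the block, in either direction. In limma-voom 109 of the 17185 genes tested passed. Fos, an immediate-early transcription factor, had 175, 151 and 181 reads in shFabp7 libraries 1 to 3, against 407, 653 and 440 reads in shScr libraries 1 to 3. Sik1, a kinase that restrains CREB coactivators, had 218, 189 and 242 reads, against 445, 410 and 346. The groups did not overlap for either. Pcsk1, the prohormone convertase on that list, had -0.36 (edgeR adjusted p = 0.314), and Vgf, a secreted neuropeptide precursor on the same list, had 0.15, and 0.098 without shScr library 1. Pcsk1 and Vgf were chosen after their values were seen. Of 13 CREB and interneuron transcription regulators, 0 passed in edgeR, DESeq2, limma-voom or with the block. An unadjusted p under 0.05 was found for 4, against 16.8% of all genes tested. Tef and Crtc1, the most abundant, had 0.13 and 0.18.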

How the data were processed

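Cortex RNA was measured in 6 libraries (stranded mRNA preparation, 0.5 µg of input RNA, per the labels' protocols). Per the file headers, the deposited values are featureCounts-style raw counts, 1 whole number for each gene. Trimmomatic 0.36, STAR 2.5.2b, Subread 1.5.2, DESeq2 and GRCm39 are named, with no role or order, per the submitters' processing notes. The positions in the files are read as GRCm38, since 91.4% of the 49056 gene IDs found in GENCODE M21 had the same position there. Whether counting used strand is not given in these sources. Symbols were found for 48970 of 49315 genes, and the others took at most 0.114% of a library's counts.

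Genes were filtered with filterByExpr, scaled by TMM and tested with edgeR's quasi-likelihood test (edgeR 4.0.16, R 4.3.3, robust, group alone, two-sided), with Benjamini-Hochberg adjustment over 17185 genes and a threshold of 0.05. Each SE is the log2 fold change over the square root of F, and 95% intervals use the t quantile of the fit. DESeq2 1.42.0, limma-voom (limma 3.58.1) with quality weights and the other alternatives are given in the closing section. Same-numbered libraries deviated together (correlations of 0.204, 0.295 and 0.203 across genes, each the highest for its shFabp7 library), so the numbers were taken to pair the libraries, although the labels do not say what a number marks. This pairing was read from the same data that the block fit tests, so a call with the block is not independent of it. For number 2, the shFabp7 library was read as female and the shScr library as male. The scripts were tested on simulated counts. No library was a copy of another (chi-square per degree of freedom of 5.84 or more).

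The members and lists were chosen with earlier results of these data known. Named were the members, Fabp7, for each list up to 4 genes past the threshold or else the 2 of highest mean and the 2 of largest change with a mean of at least 1 CPM, and the 2 genes nearest to each member among those with a mean of at least 5 CPM. Some genes that this rule names are not reported here. For the distances and within-group SDs, 1 was added to CPM before the log2.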

Additional observations from a re-analysis of the deposited data

How the results depend on the processing

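The number of genes called was 20 with all 6 libraries and moved with the method: it was 703 in DESeq2, 1617 with no filter, 109 in limma-voom with quality weights, 629 with the replicate block, 7 with sex as a covariate, 41 with the striatal marker covariate and 292 at a threshold of 0.1. It ranged from 0 to 900 when each library was left out, being 182 without shScr library 1, 900 without shScr library 2, 10 without shFabp7 library 1 and 0 without shFabp7 library 2 or 3. It was 38 without shScr library 1 and shFabp7 library 3 together, an alternative chosen after seeing the data. The number of members called was 0, and it was 1, Npy, in DESeq2, with no filter, with the replicate block and, among the libraries left out (0 to 1), without shScr library 2 (adjusted p of 0.0236). The cause was not tested. Of 170 recomputed log2 fold changes of members, 3 reversed and 163 kept both their direction and their side of the threshold. Penk ranged from -1.30 to 0.031 and Pdyn from -0.60 to 0.068 over the libraries left out, both turning without shScr library 1, and Crh ranged from -0.29 to 0.023, turning without shFabp7 library 2. The replicate block changed the call of no member other than Npy. Library totals alone moved the median of all genes to -0.056 and turned the sign of no member. The depth of 29 to 89 reads limits Cort and Crh.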

Other observations

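Marker lists of other cell types and regions held 0 genes past the threshold in edgeR. The unadjusted p was under 0.05 for 4 of 8 microglia markers, 1 of 8 oligodendrocyte markers, 1 of 8 endothelial and fibroblast markers, 7 of 10 astrocyte markers (a list that holds Fabp7), 2 of 11 hippocampal, 3 of 11 hypothalamic and thalamic, 1 of 7 amygdala and piriform, and 1 of 4 choroid plexus markers. For excitatory neuron markers it was 3 of 16 and for striatal markers 0 of 13. Over all genes tested the share was 16.8%. In DESeq2, C1ql2, a gene of dentate granule cells, was lower (log2 fold change of -3.78 in edgeR), as was Gfap, the astrocyte filament gene (-0.79 in edgeR). C1ql2 had 10, 10 and 17 reads in shFabp7 libraries 1 to 3, against 114, 111 and 319 reads in shScr libraries 1 to 3. Cux2, an upper-layer neuron gene, was higher in DESeq2 (0.63 in edgeR). Cux2 was chosen after its values were seen.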
